A study of Mus musculus with 12 samples.

Results

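Expression of 10 bile acid synthesis enzymes of the liver was followed in an RNA-seq study of ARE-Del mice: Cyp7a1, Cyp8b1, Cyp27a1, Cyp7b1, Cyp39a1, Akr1c6, Akr1d1, Hsd3b7, Baat and Acox2. Each was taken as the row of the expression table whose identifier equals the gene's symbol. Of the 10 genes, 9 had a row of their own among 19852 in the table, and all 9 passed the filter on low values. Hsd3b7 was listed only in an entry merged with its neighbour Setd1a, whose joint value is given but is not counted as a member. The study compared livers of 20-week-old C57BL/6 mice in 4 groups of 3 libraries: female ARE-Del, female WT, male ARE-Del and male WT, the WT animals being littermates. ARE-Del mice carry a germline deletion of the AU-rich element in the Ifng transcript, which lengthens the life of that mRNA, so interferon-gamma is made chronically and in no single targeted cell type. The extraction notes write the genotype as ARE-Del-/-, and no group received a treatment that the labels name. The labels do not say how litters were shared among the groups, so the p-values measure only the spread between these libraries.

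Bile acids are made from cholesterol in hepatocytes. The classic pathway begins with 7-alpha-hydroxylation of cholesterol by Cyp7a1, its rate-limiting enzyme, and Cyp8b1 then sets how much cholic acid is made. The alternative pathway begins with oxysterols, which Cyp27a1 and other hydroxylases make and Cyp7b1 or Cyp39a1 hydroxylate further, after which both pathways share enzymes for the ring, the side chain and conjugation. Bile acids returning to the liver and gut limit their own synthesis through the receptor FXR (Nr1h4), its target SHP (Nr0b2) and the FGF15 signal read by Fgfr4 and its partner Klb.

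Values are RPKM, reads per kilobase of gene scaled to the library's mapped reads. In females, summed RPKM per library was 201338 to 208647 in ARE-Del and 174636 to 190533 in WT livers. The male sums were 189579 to 195444 in ARE-Del and 173476 to 184252 in WT livers. ARE-Del sums thus lay above WT sums in each sex, with no overlap. Within-group Pearson r of log2(RPKM + 1) ran from 0.988 to 0.994. Read totals are not given, so the depth behind a single value is known only in relative terms, and it spanned 0.908 to 1.45 times that of female WT 1. Ifng averaged 0.178 ± 0.0782 RPKM in female ARE-Del and 0.0138 ± 0.00612 in female WT livers, and 0.0982 ± 0.0241 in male ARE-Del and 0.0127 ± 0.0221 in male WT livers (SD, n = 3 each; exact permutation test stratified by sex, 2-sided p = 0.005, the smallest that 400 arrangements can give). The library labelled female ARE-Del 2 had 0.0456 RPKM of Xist, against 33.0 to 45.6 in the other 5 female libraries, and 0 of the Y-linked Ddx3y, so it goes against its label in Xist alone. Called female allele effects, interaction values and counts of called genes that rest on it are given with and without it at the deposited scaling. Medians, marker sums, counts of groups that did not overlap, counts at an unadjusted p and sex differences of list genes include it. All 8 hepatocyte markers were detected in every group.

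Allele effects are differences of log2(RPKM + 1), ARE-Del minus WT, with SE, from limma over all 10568 genes tested, and a gene is called at a Benjamini-Hochberg adjusted p below 0.05. In females, 3 of 9 enzymes were called: Acox2 rose, and Cyp39a1 and Akr1c6 fell. By mean RPKM, a level per length, Akr1c6 ranked highest of the 9 enzymes, at 67 among 19852 genes, and Cyp39a1 lowest, at 3388. Over all genes 31.3% were called, 25.8% as higher and 5.53% as lower, so the 3 of 9 called were near the background share. The libraries did not overlap for 4 of 9 enzymes, against 43.5% of all genes. The median difference was -0.18 for the 9 enzymes and 0.09 for all genes. In males, Acox2 and Cyp27a1 rose and none fell. That is 2 of 9 enzymes, against 21.5% of all genes called, 19.5% as higher and 2.04% as lower. Groups did not overlap for 3 of 9, against 41.6%, and the medians were 0.27 for the enzymes and 0.10 for all genes. Median-of-ratios scaling moved the median of all genes by -0.101 in females and -0.108 in males, and quantile normalization moved it by -0.157 and -0.144. For called enzymes the change relative to the median gene is given too. With female ARE-Del 2 left out, the same fit also called 3 enzymes in females, against 29.9% of all genes. The 6 others then had differences of 1.07 for Cyp7a1, 0.61 for Cyp8b1, -0.13 for Cyp27a1, -0.38 for Cyp7b1, -0.37 for Akr1d1 and -0.12 for Baat. Bulk tissue cannot tell fewer cells of a type from less RNA per cell.

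**Figure D1:**
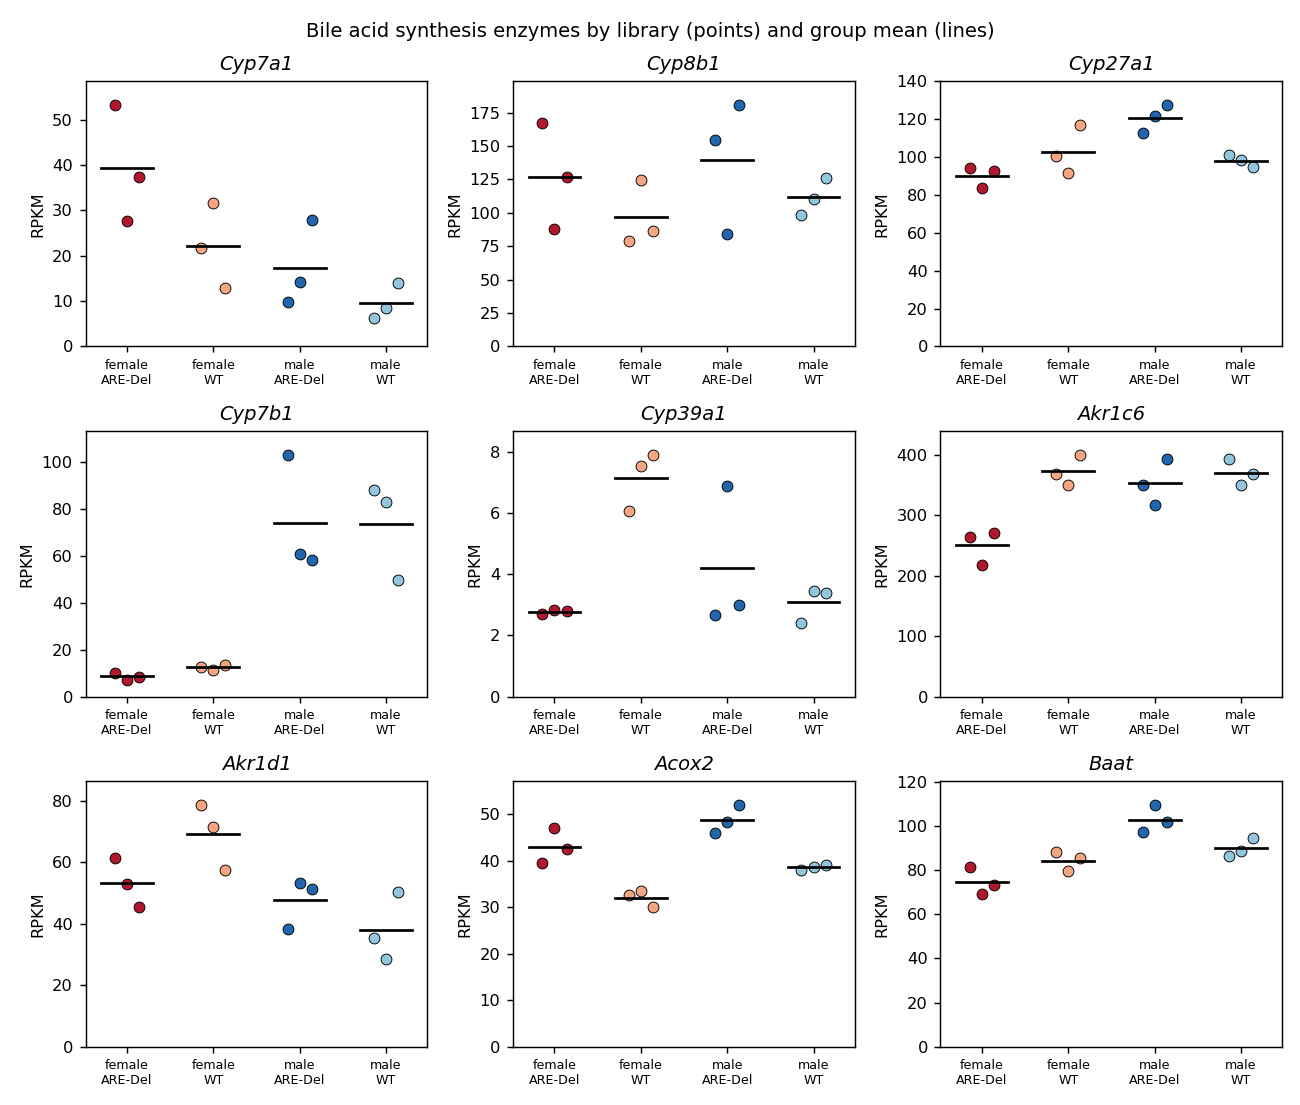
RPKM of the 9 enzymes in each of the 12 libraries (points, 3 per group), with group means as lines; each panel has its own linear axis from 0. Female ARE-Del points for Cyp39a1 and Akr1c6 lie below all female WT points, those for Acox2 lie above, and Cyp7b1 is far lower in females than in males.

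The promoter windows below belong to Akr1c6 and Acox2, which were called in allele comparisons, and, for contrast, to Cyp8b1, which was not called in any comparison. They are RefSeq sequences of GRCm38.p6, 250 bases before to 50 after the start, read 5′ to 3′ on the gene's own strand. Akr1c6 lies at chr13:4434093-4434392 on the plus strand, Acox2 at chr14:8258970-8259269 on the minus strand, and Cyp8b1 at chr9:121916256-121916555 on the minus strand. Capitals mark the letters TATAAA and CAAAGTCCA, the HNF4 core, where a script found them on either strand.
Akr1c6: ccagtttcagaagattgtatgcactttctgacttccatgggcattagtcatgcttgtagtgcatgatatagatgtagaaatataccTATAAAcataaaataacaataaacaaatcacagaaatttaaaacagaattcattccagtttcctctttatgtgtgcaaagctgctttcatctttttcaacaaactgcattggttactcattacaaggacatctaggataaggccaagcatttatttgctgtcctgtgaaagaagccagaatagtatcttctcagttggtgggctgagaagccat
Acox2: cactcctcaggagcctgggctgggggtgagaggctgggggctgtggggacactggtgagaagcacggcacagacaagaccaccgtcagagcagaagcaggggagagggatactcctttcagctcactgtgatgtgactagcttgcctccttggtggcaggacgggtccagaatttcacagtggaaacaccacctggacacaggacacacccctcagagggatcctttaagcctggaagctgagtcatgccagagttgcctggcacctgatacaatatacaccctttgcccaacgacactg
Cyp8b1: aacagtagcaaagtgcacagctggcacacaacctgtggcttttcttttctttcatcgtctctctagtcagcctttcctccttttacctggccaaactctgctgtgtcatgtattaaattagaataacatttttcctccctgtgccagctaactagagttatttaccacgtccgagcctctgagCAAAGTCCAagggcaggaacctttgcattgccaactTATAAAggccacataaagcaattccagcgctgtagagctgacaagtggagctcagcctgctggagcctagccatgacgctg
Akr1c6 held TATAAA 164 bases before its start, Cyp8b1 held it 31 bases before, and Acox2 did not hold it. Over 32851 RefSeq promoters of this length, 13.6% held TATAAA. Cyp8b1 also held CAAAGTCCA 67 bases before its start, as 0.475% of promoters did. A match is a description of letters and not a site. Promoter windows were read for 6 of the 10 genes. The others searched were TTCNNNGAA, held by 8.3% of promoters, TCAAGG by 14.4%, AGGTCA by 16.3% and GTTAAT by 7.1%, and none of these was in the 3 windows printed. Of the windows not printed, that of Hsd3b7 held TTCNNNGAA 21 bases before its start. The Akr1d1 window held TCAAGG and AGGTCA, and none of the 6 genes held GTTAAT.

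Cyp7a1 had 53.2, 27.7 and 37.4 RPKM in female ARE-Del livers, against 21.7, 31.6 and 12.9 in female WT livers. In males it had 9.87, 14.3 and 27.8 RPKM in ARE-Del livers, against 6.27, 8.49 and 13.9 in WT livers. The ARE-Del libraries averaged higher in both sexes, but 1 female WT library lay above the lowest female ARE-Del library, and the male groups overlapped too. The difference was 0.85 ± 0.39 in females and 0.74 ± 0.39 in males, and neither was called (adjusted p = 0.125 and 0.206, limma). With 1 library left out, the female difference ran from 0.52 (without female WT 3) to 1.14 (without female WT 2) and the male one from 0.35 (without male ARE-Del 3) to 1.055 (without male ARE-Del 1). Cyp8b1, the sterol 12-alpha-hydroxylase of cholic acid synthesis, had 167, 87.7 and 127 RPKM in female ARE-Del livers and 78.8, 124 and 86.8 in female WT livers. Male ARE-Del livers had 154, 84.5 and 181 RPKM, against 98.4, 111 and 126 in male WT livers. The groups overlapped in both sexes, and no comparison called the gene. With 1 library left out, its difference ran from 0.15 (without female ARE-Del 1) to 0.61 (without female ARE-Del 2) in females and from 0.040 (without male ARE-Del 3) to 0.58 (without male ARE-Del 2) in males.

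Cyp27a1, the mitochondrial hydroxylase that starts the alternative pathway, had 94.3, 83.6 and 92.5 RPKM in female ARE-Del livers, against 100.4, 91.4 and 117 in female WT livers. The male values were 113, 122 and 127 RPKM in ARE-Del livers, against 101, 98.4 and 94.5 in WT livers. Female groups overlapped, and every male ARE-Del library lay above every male WT library. The male difference of 0.30 ± 0.10 was called at adjusted p = 0.047, and the female one of -0.18 ± 0.10 was not (adjusted p = 0.172, limma). Relative to the median gene, the male difference was 0.20. That call was lost without a filter (adjusted p = 0.0669), under median-of-ratios scaling (0.13), under quantile normalization (0.10), with a replicate block (adjusted p = 0.059) and in 9 of 12 fits that left out 1 library. The female difference was called under median-of-ratios scaling (-0.34, adjusted p = 0.00953) and quantile normalization (-0.25, adjusted p = 0.0328), and it was -0.089 without female WT 3.

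Cyp7b1, the oxysterol 7-alpha-hydroxylase, had 10.2, 7.09 and 8.47 RPKM in female ARE-Del livers, against 12.4, 11.2 and 13.6 in female WT livers. In males it had 103, 60.5 and 58.0 RPKM in ARE-Del livers, against 88.0, 82.8 and 49.7 in WT livers. The female groups did not overlap, whereas the male groups did. The female difference of -0.49 ± 0.24 was not called (adjusted p = 0.135, limma) unless only the 2 female groups entered the fit (adjusted p = 0.0252). Cyp39a1, which 7-alpha-hydroxylates 24-hydroxycholesterol, had 2.71, 2.83 and 2.79 RPKM in female ARE-Del livers, against 6.07, 7.54 and 7.89 in female WT livers. Male ARE-Del livers had 2.69, 6.90 and 3.00 RPKM, against 2.40, 3.45 and 3.40 in male WT livers. The female ARE-Del libraries were close together and all below the female WT libraries, while male ARE-Del 2 stood above the other 5 male libraries. Cyp39a1 fell by 1.11 ± 0.23 on the log2 scale in females (adjusted p = 0.00267, limma), or by 1.19 relative to the median gene, and the male difference was 0.27 ± 0.23, or -0.08 without male ARE-Del 2. An snRNA gene overlaps Cyp39a1 and another overlaps Cyp7b1, and the authors' use of strand is not given in the sources used here. When female ARE-Del 2 was left out the female difference was -1.12 (adjusted p = 0.00831).

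Akr1c6 is an aldo-keto reductase of sterols and one of a family of similar genes whose reads the counting may share. It had 264, 218 and 271 RPKM in female ARE-Del livers, against 368, 351 and 399 in female WT livers. The male values were 351, 317 and 393 RPKM in ARE-Del livers, against 392, 351 and 368 in WT livers. All female ARE-Del libraries lay below all female WT libraries, and the male groups overlapped. The gene fell by 0.57 ± 0.11 in females (adjusted p = 0.00161, limma), or by 0.66 relative to the median gene, and the male difference was -0.07. When female ARE-Del 2 was left out the female difference was -0.48 (adjusted p = 0.00606). Akr1d1, the 5-beta-reductase of the sterol ring, had 61.3, 53.0 and 45.6 RPKM in female ARE-Del livers, against 78.5, 71.4 and 57.5 in female WT livers. In males it had 38.2, 53.4 and 51.4 RPKM in ARE-Del livers, against 35.3, 28.5 and 50.3 in WT livers. Both pairs of groups overlapped. The differences, -0.37 in females and 0.34 in males, were not called (adjusted p = 0.184 and 0.248, limma), and a pseudogene overlaps this gene. The male difference was 0.16 without male WT 2 and 0.56 without male WT 3. The entry that merges Hsd3b7, the dehydrogenase of the ring, with Setd1a had 33.8, 28.9 and 34.9 RPKM in female ARE-Del livers and 30.8, 34.2 and 32.7 in female WT livers. Male ARE-Del livers had 32.4, 28.8 and 30.1 RPKM, against 28.4, 30.6 and 27.6 in male WT livers. Its groups overlapped in both sexes and no comparison called it.

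Acox2, the peroxisomal oxidase of the branched side chain, was the 1 enzyme called in both sexes. As higher, 25.8% of all genes were called in females and 19.5% in males, and the share called in both was not computed. Acox2 had 39.6, 47.0 and 42.4 RPKM in female ARE-Del livers, against 32.6, 33.5 and 30.0 in female WT livers. The male values were 46.0, 48.3 and 51.9 RPKM in ARE-Del livers, against 37.9, 38.6 and 39.1 in WT livers. ARE-Del libraries lay above WT libraries in each sex with no overlap. Acox2 rose by 0.41 ± 0.08 in females (adjusted p = 0.00205) and by 0.33 ± 0.08 in males (adjusted p = 0.0138, limma). Relative to the median gene the differences were 0.32 and 0.23. The calls were lost under median-of-ratios scaling, at 0.26 in females (adjusted p = 0.0652) and 0.17 in males (adjusted p = 0.267), and the male call also under quantile normalization (adjusted p = 0.123), without male ARE-Del 3 (adjusted p = 0.0586) or without male WT 1 (adjusted p = 0.055). When female ARE-Del 2 was left out the female difference was 0.35 (adjusted p = 0.00888). Baat, which conjugates bile acids to taurine or glycine, had 81.6, 69.1 and 73.2 RPKM in female ARE-Del livers, against 88.1, 79.6 and 85.3 in female WT livers. In males it had 97.2, 109 and 102 RPKM in ARE-Del livers, against 86.6, 88.8 and 94.6 in WT livers. The female groups overlapped narrowly and the male groups did not. The differences of -0.18 and 0.19 were not called as deposited (adjusted p = 0.136 and 0.135, limma), and the female difference was called under median-of-ratios scaling (-0.33, adjusted p = 0.00199) and quantile normalization (-0.22, adjusted p = 0.015).

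**Figure D2:**
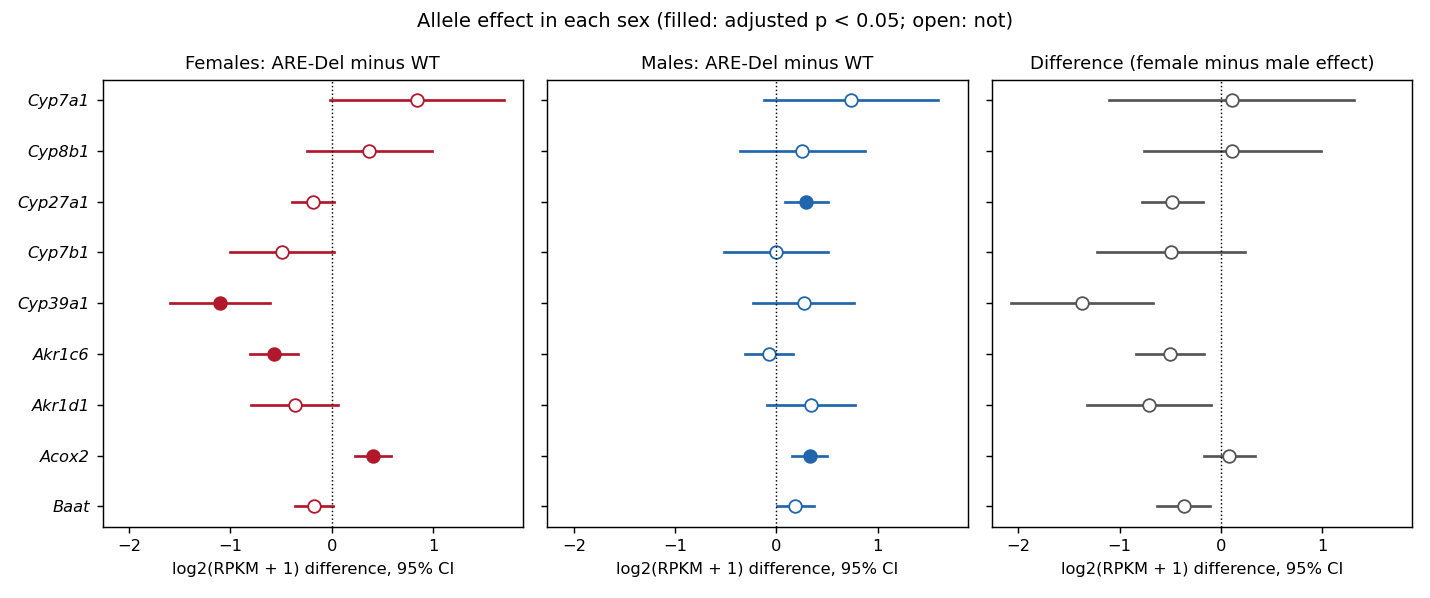
Differences of log2(RPKM + 1), ARE-Del minus WT, in females and males and the female minus the male difference, with 95% confidence intervals; filled points passed an adjusted p of 0.05. Acox2 is filled in both sexes, Cyp39a1 and Akr1c6 in females, Cyp27a1 in males, and no enzyme in the panel of the difference.

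Whether the allele's change differed between the sexes was tested as the interaction, the female difference minus the male one. No enzyme was called, against 0.568% of all genes (60 genes). At an unadjusted p below 0.05 there were 5 of 9 enzymes, against 11.6% of all genes (1231 genes). The 9 interactions had a median of -0.48, with 6 below 0, against 0.000425 for the median of all genes. Those with an unadjusted p below 0.05 were Cyp39a1 (-1.38 ± 0.32, adjusted p = 0.0791), Cyp27a1 (-0.48 ± 0.14, adjusted p = 0.15), Akr1c6 (-0.50 ± 0.15, adjusted p = 0.185), Baat (-0.37 ± 0.12, adjusted p = 0.222) and Akr1d1 (-0.71 ± 0.28, adjusted p = 0.335). In each of these the female difference lay below the male one. Cyp39a1 alone moved past the threshold with 1 library left out: without male ARE-Del 2 the interaction was -1.03 (adjusted p = 0.0494, limma). With female ARE-Del 2 left out no enzyme was called either, against 0.615% of all genes. In that fit the interaction was -1.39 for Cyp39a1 (adjusted p = 0.103), -0.43 for Cyp27a1 (adjusted p = 0.216), -0.40 for Akr1c6 (adjusted p = 0.254), -0.31 for Baat (adjusted p = 0.314) and -0.71 for Akr1d1 (adjusted p = 0.389). For Cyp7a1 and Acox2 the interaction with all libraries was 0.11 ± 0.56 (95% interval -1.11 to 1.32) and 0.08 ± 0.12 (95% interval -0.17 to 0.33), or 0.33 and 0.02 without female ARE-Del 2.

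Between the sexes, Cyp7b1 differed most among the 9 enzymes, with lower levels in females in both genotypes. Female minus male was -2.92 ± 0.24 in ARE-Del livers (adjusted p = 9.75e-06) and -2.43 ± 0.24 in WT livers (adjusted p = 4.16e-05, limma). Every female library lay below every male library for this gene. In ARE-Del livers, 5 of 9 enzymes were called, against 22.4% of all genes, and 4 of 9 did not overlap, against 39.8%. The 5 were Cyp7b1, Baat (-0.46 ± 0.08, adjusted p = 0.00243), Akr1c6 (-0.49 ± 0.11, adjusted p = 0.00691), Cyp27a1 (-0.42 ± 0.10, adjusted p = 0.00911) and Cyp7a1 (1.21 ± 0.39, adjusted p = 0.0447). Cyp7a1 was higher in females by the mean in both genotypes, and the WT difference of 1.11 ± 0.39 was not called (adjusted p = 0.103). Its ARE-Del call was lost in 6 of 12 fits without 1 library, with adjusted p up to 0.154, and in 5 of the 8 other settings. The lowest female ARE-Del library, at 27.7 RPKM, lay just below the highest male one, at 27.8. Akr1c6 was not called under quantile normalization (-0.35, adjusted p = 0.0677). With female ARE-Del 2 left out, the ARE-Del comparison called these 5 again, against 21.1% of all genes. The differences were then -2.81 for Cyp7b1, -0.40 for Baat, -0.40 for Akr1c6, -0.36 for Cyp27a1 and 1.44 for Cyp7a1. In WT livers, 3 of 9 enzymes were called, against 9.76% of all genes, and 4 of 9 did not overlap, against 28.4%. Besides Cyp7b1 these were Cyp39a1 (1.00 ± 0.23, adjusted p = 0.0161) and Akr1d1 (0.87 ± 0.20, adjusted p = 0.0167), both higher in females. Both calls were lost when no filter was used (adjusted p = 0.0617 and 0.0591). The Cyp39a1 call was lost without female WT 3 (adjusted p = 0.0509) or male WT 1 (adjusted p = 0.0797), and the Akr1d1 call without female WT 1 (adjusted p = 0.07), male WT 1 (adjusted p = 0.0687) or male WT 2 (adjusted p = 0.0589).

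**Figure D3:**
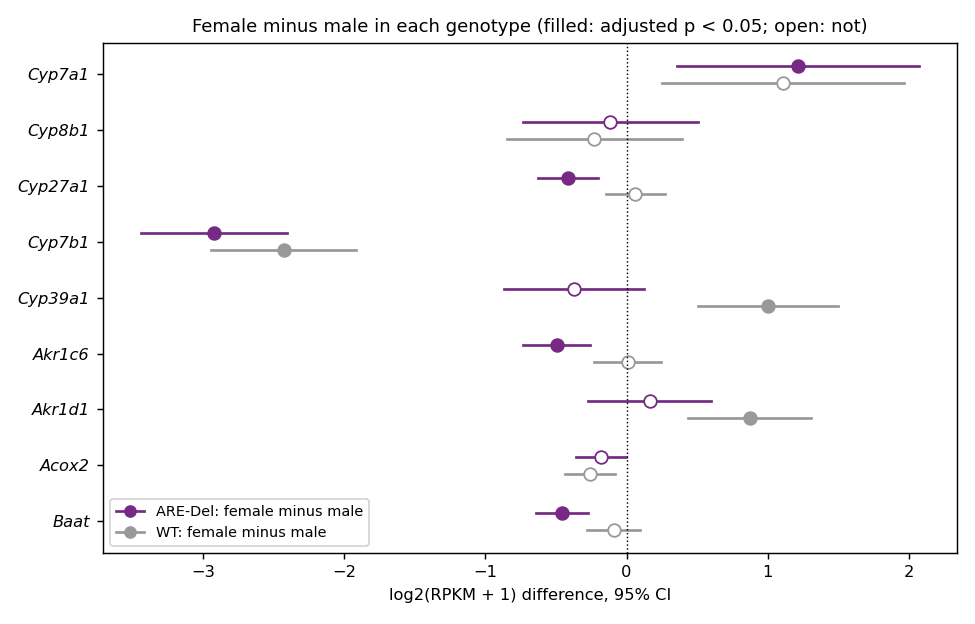
Female minus male differences of log2(RPKM + 1) in ARE-Del and WT livers with 95% confidence intervals; filled points passed an adjusted p of 0.05. Cyp7b1 lies at -2.92 in ARE-Del and -2.43 in WT livers, and Cyp27a1, Akr1c6 and Baat are filled in ARE-Del livers and open in WT livers.

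The ratio of Cyp7a1, of the classic pathway, to Cyp7b1, of the alternative pathway, was taken within each library as a description, with no test. The female allele difference of neither gene was called. Cyp7a1 over Cyp7b1 was 5.20, 3.90 and 4.41 in female ARE-Del livers, against 1.74, 2.81 and 0.947 in female WT livers. In males it was 0.0961, 0.236 and 0.480 in ARE-Del livers, against 0.0713, 0.103 and 0.280 in WT livers. All female ARE-Del ratios lay above all female WT ratios, the male groups overlapped, and every female ratio exceeded every male one. For scale, 43.5% of single genes did not overlap between the female groups, and other gene pairs were not examined for this. Cyp7b1 alone was 7.09 to 13.6 RPKM in female and 49.7 to 103 in male libraries. Cyp8b1 over Cyp7a1 was 3.14, 3.17 and 3.39 in female ARE-Del livers and 3.63, 3.94 and 6.72 in female WT livers. In males it was 15.7, 5.93 and 6.49 in ARE-Del livers and 15.7, 13.0 and 9.07 in WT livers. Female ARE-Del ratios were the lowest and closest together of the 4 groups. Summed RPKM of the 9 enzymes was 774, 596 and 700 in female ARE-Del livers, against 787, 801 and 810 in female WT livers. In males the sum was 915, 816 and 995 in ARE-Del livers, against 848, 811 and 840 in WT livers. Akr1c6 was the largest part of every sum, at 218 to 271 RPKM in female ARE-Del and 351 to 399 in female WT livers. The sums therefore do not describe the 9 enzymes evenly. In females 6 enzymes had log2 differences below 0 and 3 above.

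**Figure D4:**
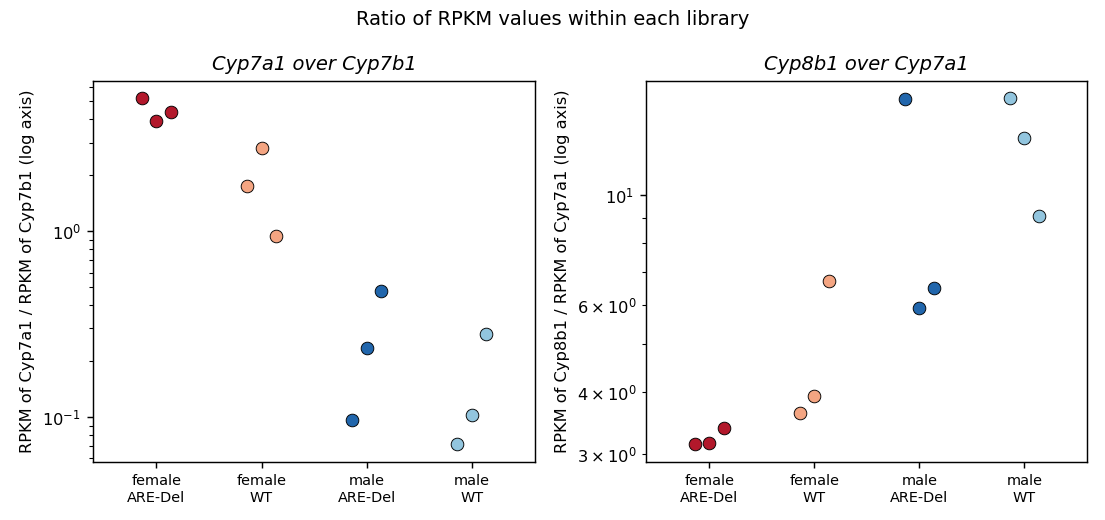
Ratios of RPKM values within each library on a log axis, Cyp7a1 over Cyp7b1 on the left and Cyp8b1 over Cyp7a1 on the right, 1 point per library. Cyp7a1 over Cyp7b1 is 3.90 to 5.20 in female ARE-Del livers and at most 2.81 in female WT livers.

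Other enzymes of the pathway, 11 of 13 of them tested, had 1 called as higher and 4 as lower in females, and 2 called as higher and none as lower in males. Over all genes, 25.8% were called as higher and 5.53% as lower in females, and 19.5% and 2.04% in males. With female ARE-Del 2 left out, the female counts were 0 and 2, against 2753 and 410 of all 10568 genes. Under median-of-ratios scaling the counts were 0 and 4 in females and 1 and 2 in males. That scaling called 1915 of all 10568 genes as higher and 1750 as lower in females, and 1217 and 967 in males. Hsd17b4, the peroxisomal enzyme of side-chain oxidation, had 33.4, 27.5 and 32.8 RPKM in female ARE-Del livers against 41.1, 38.2 and 44.9 in female WT livers, with no overlap (-0.40 ± 0.09, adjusted p = 0.00512, limma), and was called without female ARE-Del 2 (-0.31, adjusted p = 0.0199). Scp2, the sterol carrier with peroxisomal thiolase activity, averaged 192 ± 27.8 RPKM in female ARE-Del and 249.8 ± 37.9 in female WT livers (-0.38 ± 0.13, adjusted p = 0.0384), and the difference was not called without female ARE-Del 2 (-0.26, adjusted p = 0.133). Por, which donates electrons to microsomal P450 enzymes, averaged 25.8 ± 6.59 RPKM in male ARE-Del and 12.6 ± 2.07 in male WT livers, the largest rise among the other enzymes named (0.96 ± 0.17, adjusted p = 0.00189). Cyp3a11, which hydroxylates steroids and bile acids, had 327, 146 and 211 RPKM in female ARE-Del livers against 401, 298 and 534 in female WT livers (-0.88 ± 0.29, adjusted p = 0.0347), and the call was lost without female ARE-Del 2 (adjusted p = 0.125). Por in males was called under both scalings too. Female minus male, Por differed by 1.31 in WT (adjusted p = 0.000453) and 0.65 in ARE-Del livers (adjusted p = 0.0186, limma). Hsd17b4 (-0.44, adjusted p = 0.00457) and Cyp3a11 (-1.26, adjusted p = 0.00823) were called between the sexes in ARE-Del livers. In WT livers neither was (adjusted p = 0.116 and 0.678, limma). Scp2 averaged 458 ± 30.5 RPKM in male ARE-Del and 534 ± 19.0 in male WT livers, above both female means. Fdx1, the mitochondrial electron donor, differed with the allele by -0.02 in both sexes and was not called. It was lower in females than in males, by 0.32 in WT (adjusted p = 0.0164) and 0.31 in ARE-Del livers (adjusted p = 0.00909, limma). Called outside this rule, and named after their values were seen, were Amacr (0.28) and Acot8 (-0.32) in females and Cyp2c70 (0.52) in males. Amacr was not called without female ARE-Del 2 (adjusted p = 0.0571), under median-of-ratios scaling (adjusted p = 0.299) or under quantile normalization (adjusted p = 0.0774). Cyp2c70 was not called under median-of-ratios scaling (adjusted p = 0.22) or quantile normalization (adjusted p = 0.149), while Acot8 was called under both and, at adjusted p = 0.0498, without female ARE-Del 2.

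The regulators, 21 of 25 of them tested, had 3 called as higher and 2 as lower in females, and 4 as higher in males. The shares of all genes were 25.8% higher and 5.53% lower in females, and 19.5% and 2.04% in males. Without female ARE-Del 2 the female counts were 3 and 0, against 2753 and 410 of all 10568 genes. Under median-of-ratios scaling they were 1 and 4 in females and 2 and 0 in males. The same scaling called 1915 and 1750 of all genes in females and 1217 and 967 in males. Nr1h3 and Nr1h2 encode the oxysterol receptors LXR-alpha, which induces Cyp7a1 in mice, and LXR-beta. They rose in females by 0.39 ± 0.07 (adjusted p = 0.000908) and 0.31 ± 0.08 (adjusted p = 0.00821), and Nr1h2 rose in males (0.39 ± 0.08, adjusted p = 0.00367, limma). Nr1h2 was not called in females under median-of-ratios scaling (adjusted p = 0.065) or quantile normalization (adjusted p = 0.0668). Without female ARE-Del 2 the female differences were 0.36 for Nr1h3 (adjusted p = 0.00435) and 0.35 for Nr1h2 (adjusted p = 0.0108). Nr1i3, the xenobiotic receptor CAR, fell in females by 0.54 ± 0.15 (adjusted p = 0.0166), and Insig2, a brake on sterol-regulated transcription, fell by 0.52 ± 0.17 (adjusted p = 0.031). Both calls were lost without female ARE-Del 2 (adjusted p = 0.064 and 0.082). Klb averaged 6.58 ± 0.145 RPKM in female ARE-Del and 6.43 ± 1.12 in female WT livers. In males it averaged 4.45 ± 0.950 RPKM in ARE-Del and 3.50 ± 0.865 in WT livers. Its allele difference was not called in either sex. Nr0b2, named after its values were seen, averaged 4.33 ± 1.30 RPKM in female ARE-Del and 5.81 ± 3.17 in female WT livers and was not called in any comparison, and Nr1h4 was not called in either sex (-0.32 and -0.17). The other regulators called were Smarcd1 (0.21) in females and Hnf4a (0.44), Ppargc1a (0.43) and Rxra (0.27) in males, named after their values were seen. Median-of-ratios scaling and quantile normalization each ended the calls of Smarcd1 (adjusted p = 0.0923 and 0.606), Hnf4a (adjusted p = 0.0697 and 0.0703) and Rxra (adjusted p = 0.4 and 0.304), and quantile normalization ended that of Ppargc1a (adjusted p = 0.0654). Smarcd1 was called without female ARE-Del 2 (0.22, adjusted p = 0.0274).

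The transporters, 13 of 14 tested, had 3 called as lower and none as higher in females, and 1 each way in males. Among all genes, 5.53% were called as lower and 25.8% as higher in females, and 2.04% and 19.5% in males. Under median-of-ratios scaling 5 were lower in females and 2 in males, with none higher. Lower calls over all 10568 genes went from 584 as deposited to 1750 in females and from 216 to 967 in males. Slco1a4, which takes up organic anions, had 12.1, 10.9 and 9.16 RPKM in female ARE-Del livers against 28.3, 29.0 and 26.2 in female WT livers (-1.30 ± 0.13, adjusted p = 1.17e-05) and fell in males by 0.70 ± 0.13 (adjusted p = 0.00284, limma). Slco1a1, another uptake carrier, had 2.45, 1.03 and 1.14 RPKM in female ARE-Del livers against 4.34 to 21.7 in female WT livers (-2.31 ± 0.40, adjusted p = 0.000779). In males Slco1a1 averaged 61.4 ± 2.70 RPKM in ARE-Del and 65.1 ± 11.3 in WT livers and was not called (-0.07 ± 0.40, adjusted p = 0.917). Slco1b2, the hepatic uptake carrier of unconjugated bile acids, averaged 103.5 ± 2.51 RPKM in female ARE-Del and 168 ± 19.8 in female WT livers (-0.69 ± 0.10, adjusted p = 0.000165). Its male difference of -0.26 ± 0.10 was not called (adjusted p = 0.0767) as deposited and was called under median-of-ratios scaling (-0.42, adjusted p = 0.00328) and quantile normalization (-0.41, adjusted p = 0.00732). The 3 female calls were also made without female ARE-Del 2 and under both scalings. Slc51b, a subunit of the basolateral exporter, rose in males by 0.45 ± 0.14 (adjusted p = 0.0408), with 0.504, 1.08 and 0.612 RPKM in male ARE-Del livers against 0.276, 0.177 and 0.314 in male WT livers, and the call was lost under median-of-ratios scaling (adjusted p = 0.0787) and quantile normalization (adjusted p = 0.248). Abcc4, a basolateral efflux pump, was not called for the allele in either sex. Female minus male, it was called in WT (0.44, adjusted p = 0.00787) and ARE-Del livers (0.36, adjusted p = 0.013, limma). Slco1a1 (-2.42 in WT and -4.66 in ARE-Del livers) and Slco1a4 (2.17 and 1.57) were also called between the sexes. Slco1b2 was called in ARE-Del (-0.42, adjusted p = 0.00868) and not in WT livers (0.005, adjusted p = 0.981, limma).

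Among genes below the filter, Cyp46a1, which makes 24-hydroxycholesterol, had 0.0906, 0.0853 and 0.0579 RPKM in female ARE-Del livers against 0.362, 0.301 and 0.384 in female WT livers. Male ARE-Del livers had 0.0563, 0.0923 and 0.0626 RPKM, against 0.234, 0.193 and 0.257 in male WT livers. Every ARE-Del library lay below every WT library within its sex, in 2 of 2 sexes. The exact permutation test stratified by sex gave a 2-sided p of 0.005, the smallest it can give, or 0.0125 adjusted over the 5 genes below the filter. Vdr, a receptor for vitamin D and some bile acids, had the same p and was higher in ARE-Del livers, at 0.0425 to 0.0812 RPKM in female ARE-Del and 0 to 0.0113 in female WT livers. By the same exact permutation test Ch25h (p = 0.22) and Gpbar1 (p = 0.4) did not pass, and Slc51a was listed at 0 in all 12 libraries, taking values under 1e-06 as 0. That test adds the differences of the 2 sexes, so opposite directions cancel. Ch25h had 0.0476 to 0.133 RPKM in female ARE-Del and 0 to 0.0291 in female WT livers. In males it had 0 in all ARE-Del and 0 to 0.0303 in WT livers. Within 1 sex its permutation p was 0.1 in females, the smallest possible there, and 0.4 in males.

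**Figure D5:**
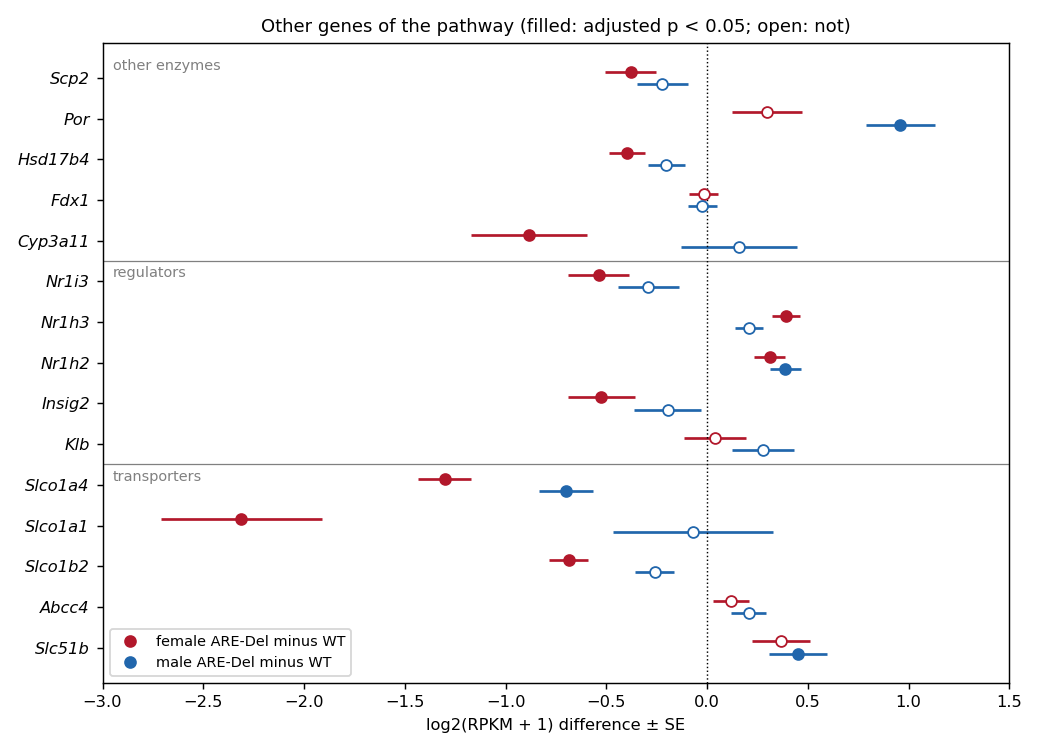
Differences of log2(RPKM + 1), ARE-Del minus WT, with SE bars, for 5 named genes from each of the other enzyme, regulator and transporter lists, females in red and males in blue; filled points passed an adjusted p of 0.05. Slco1a1 at -2.31 and Slco1a4 at -1.30 are the lowest female values.

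Markers of some other liver cells moved with the allele, and their part in the enzyme results was not tested. For scale, 25.8% of all genes were called as higher in females and 19.5% in males, and 5.53% and 2.04% as lower. All 8 Kupffer cell and macrophage markers were called as higher in each sex, with summed RPKM of 449 to 577 in female ARE-Del and 87.6 to 154 in female WT livers, and 278 to 340 in male ARE-Del and 60.3 to 107 in male WT livers. Summed hepatocyte markers were 39630 to 41530 RPKM in female ARE-Del and 32470 to 34750 in female WT livers, and 23560 to 31880 in male ARE-Del and 24320 to 25110 in male WT livers. Alb made up most of these sums. It averaged 33540 RPKM in female ARE-Del, 27350 in female WT, 20950 in male ARE-Del and 17250 in male WT livers. Alb was not called in either sex (adjusted p = 0.107 and 0.181, limma). The median difference of the hepatocyte list was 0.04 in females and 0.35 in males. The hepatocyte list, which shares Hnf4a with the regulators, had 1 of 8 called as higher in females, and 3 as higher and 1 as lower in males. Among 7 cholangiocyte markers 3 were tested and Sox9 was called as higher in each sex, while Krt19, Krt7 and Cftr stayed near 0 in all libraries, at no more than 0.241 RPKM. Summed cholangiocyte markers were 26.7 to 37.9 RPKM in female ARE-Del and 23.5 to 49.0 in female WT livers, and 19.8 to 35.1 in male ARE-Del and 22.7 to 29.9 in male WT livers. Most of these sums came from Aqp1, which was not called in either sex. Of 5 T cell markers 3 were tested, 3 called as higher in females and 2 in males, with sums of 2.49 to 4.87 RPKM in female ARE-Del and 0.267 to 0.800 in female WT livers, and 1.64 to 2.81 in male ARE-Del and 0.513 to 0.681 in male WT livers. The stellate list had 2 of 4 called as higher in females and none in males, with sums of 8.08 to 11.3 RPKM in female ARE-Del and 5.31 to 7.22 in female WT livers, and 4.26 to 7.97 in male ARE-Del and 3.04 to 5.88 in male WT livers. The endothelial list had 2 of 4 called as higher in females and 1 in males, with sums of 23.6 to 39.9 RPKM in female ARE-Del and 16.0 to 31.1 in female WT livers, and 19.8 to 32.8 in male ARE-Del and 13.8 to 18.5 in male WT livers. Without female ARE-Del 2, the female counts of called markers were 8 of 8 for macrophages, 1 of 8 for hepatocytes, 2 of 3 tested for cholangiocytes (Sox9 and Spp1), 3 of 3 tested for T cells, 2 of 4 for stellate cells and 1 of 4 for endothelial cells, all as higher. That fit called 2753 of all 10568 genes as higher in females.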

How the data were processed

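RNA from 12 mouse livers was sequenced after Illumina TruSeq preparation, per the labels' protocols. The authors deposited RPKM values per gene. Per the submitters' processing notes, they used Trimmomatic 0.30, TopHat2 2.0.8, the mm9 assembly, Partek and GenomeStudio 6.6; the sources used here do not give counting rules, strand use or annotation. Genes with at least 0.5 RPKM in at least 3 libraries (10568 of 19852) were fitted as log2(RPKM + 1) in R 4.3.3 using limma 3.58.1. The model held a mean per group, 4 in all, with variances following the mean, and p-values of each of the 5 comparisons were adjusted by Benjamini-Hochberg (threshold 0.05). The pseudocount of 1 understates changes of low genes. Deposited scaling was kept, and code was tested on simulated data. Promoters and names came from RefSeq tables of GRCm38.p6, whose coordinates differ from mm9.

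The members and lists were chosen with earlier results of these data known. Motifs were chosen after values were seen. All members were named, and from each further list the 5 genes with the smallest p in any comparison. Older symbols were matched through synonyms; Fgf15 had no match and Mafg only a merged entry. For genes below the filter an exact permutation test was used. Alternatives were a pseudocount of 0.1, no filter, a filter of 1 RPKM in 6 libraries, median-of-ratios scaling, quantile normalization, no variance trend, only the compared groups, a replicate block, and leaving out each library. The labels do not tie equal replicate numbers, so samples were treated as unpaired except with the replicate block. Same-number correlations ran from -0.291 to 0.175, which cannot settle whether litters or batches were shared. Figures used Python 3.11.15 and matplotlib 3.10.9.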

Additional observations from a re-analysis of the deposited data

How the results depend on the processing

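With the scaling left as deposited, 82.3% of genes called in females and 90.5% of those called in males were higher in ARE-Del livers. Median-of-ratios scaling gave 52.3% and 55.7%, and quantile normalization 39.3% and 44.5%. For females over males, the higher share of calls was 73.2% in ARE-Del and 68.9% in WT as deposited, 58.7% and 51.4% after median-of-ratios scaling, and 46.4% and 42.2% after quantile normalization. For the interaction it was 76.7% as deposited and 66.7% under median-of-ratios scaling, with 42 genes called. Quantile normalization called 5 enzymes in females (38.9% of all genes) against 3 (31.3%), and 5 in the WT sex comparison (13.2%) against 3 (9.76%). In males the enzymes called were 1 without a filter (10.6% of all genes), 0 after median-of-ratios scaling (20.7%), 0 after quantile normalization (19.6%) and 1 with the replicate block (19.2%), against 2 (21.5%). The WT sex comparison called 1 without a filter (4.08%). The interaction over all genes called 14 at a pseudocount of 0.1, 30 without a filter, 0 with the stricter filter, 106 under quantile normalization, 39 without the variance trend and 32 with the replicate block, against 60. The replicate block called 3019 genes in females and 2024 in males, and it also ended the ARE-Del sex call of Cyp7a1 (adjusted p = 0.0618) and the male call of Cyp27a1 (adjusted p = 0.059). The cause was not tested.

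Leaving out each library in turn gave 1271 to 2480 genes and 0 to 2 enzymes called in males, 11 to 114 genes and 0 to 1 enzymes in the interaction, 535 to 1126 genes and 1 to 4 enzymes in the WT sex comparison, and 1453 to 2498 genes in the ARE-Del sex comparison. The lowest male and WT sex counts came without male WT 1, the lowest interaction count without male WT 2 and the lowest ARE-Del sex count without male ARE-Del 2. Signs turned for uncalled values only. In males the merged Hsd3b7 entry was -0.087 after median-of-ratios scaling and -0.056 after quantile normalization. In WT sex comparisons Cyp27a1 was -0.074 under quantile normalization and Akr1c6 -0.045 under median-of-ratios scaling. With 1 library left out, female values of the merged entry ran from -0.056 to 0.077, male values from -0.26 to 0.15 for Cyp7b1, -0.078 to 0.47 for Cyp39a1 and -0.15 to 0.0044 for Akr1c6. Interaction values ran from -0.22 to 0.49 for Cyp7a1, -0.21 to 0.36 for Cyp8b1 and -0.13 to 0.0045 for the merged entry. WT sex values ran from -0.032 to 0.14 for Cyp27a1 and -0.043 to 0.051 for Akr1c6, and ARE-Del sex values from -0.44 to 0.13 for Cyp8b1. Depth is known only in relative terms, so no counting interval could be given.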
